A study of Mus musculus with 7 samples.

Results

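TCRBV14, TCRBV15 and TCRBV17 are 3 single-member V segments from the middle of the mouse T cell receptor β locus. Their rearrangements were picked out by the V label that the sequencing service had assigned (TCRBV14-01, TCRBV15-01 or TCRBV17-01) in tumor-infiltrating CD8 T cells of 7 mice. They accounted for 900 of 10930 rearrangements (8.23%), each rearrangement being 1 nucleotide sequence of 1 mouse. Of these, 565 were productive (in frame and without a stop codon) among 6907 productive ones in all, and 335 were non-productive among 4023. TCRBV14 gave 210 productive and 91 non-productive rearrangements, TCRBV15 gave 199 and 157, and TCRBV17 gave 156 and 87. In all they gave 301, 356 and 243 rearrangements. They stood further apart in templates, the estimated number of DNA molecules and hence of cells that carry a rearrangement: 3528 productive templates for TCRBV14, 652 for TCRBV15 and 305 for TCRBV17, of 66557.

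A TCRβ chain gene is put together in the thymus by joining 1 of many V segments to a D and a J segment. Bases are trimmed from the segment ends and random N bases are added at the junctions, and the resulting loop, the CDR3, runs from the last cysteine of V to a phenylalanine of J and touches the antigen peptide. The D and J segments lie in 2 clusters, and a D of the first cluster can join a J of either one. A non-productive rearrangement sits on the second allele of a cell whose other allele gave a working chain, so it shows how often a segment was joined but was not itself selected for what its protein binds. In RefSeq's gene table for GRCm38.p6, Trbv14, Trbv15, Trbv16 and Trbv17 follow each other in that order on chromosome 6, after Trbv13-3 and before the pseudogene Trbv18 and Trbv19.

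All mice were C57BL/6, 6 to 8 weeks old, carried A223 squamous cell carcinoma tumors under the skin and were treated with an anti-PD-L1 antibody. Responders (R, n = 3, mice 1R, 2R and 3R) were those whose tumors shrank under treatment, and non-responders (NR, n = 4, mice 4NR to 7NR) those whose tumors grew the most. CD8 T cells were taken from the digested tumors by positive selection, and 1 library was made from the genomic DNA of each mouse. Every group rests on 1 tumor line and carries the same treatment, and no untreated mice were analysed here. The files hold TCRβ sequences and no gene expression, so the purity of the CD8 T cells could not be checked against markers. Productive templates ranged from 2332 (6NR) to 15182 (7NR) per mouse, so that 1 template stood for 0.0429% to 0.00659% of a mouse's productive repertoire, and 333 to 1409 productive rearrangements were found per mouse.

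Some libraries shared nucleotide sequences. Over all V segments, 418 of 10378 distinct sequences were found in 2 or more mice. The pairs with the most were 3R and 5NR (105 sequences), 3R and 6NR (99), 6NR and 7NR (93), 3R and 7NR (75), and 1R and 4NR (72), against 2 to 52 for the remaining 16 pairs. Whether these arose separately in each mouse or passed between samples was not tested. The results were therefore also computed without such sequences, and that value is given where a direction or a call changed and beside some other differences.

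The 3 segments can be told apart at their 3′ ends, which form the first residues of the CDR3. The ends below are the ones found most often in productive rearrangements with an untrimmed V, and are shown because the CDR3 differences described later start from them. Capitals mark the bases that belong to the CDR3, from the cysteine codon TGT on.
TCRBV14: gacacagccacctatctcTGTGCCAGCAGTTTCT
TCRBV15: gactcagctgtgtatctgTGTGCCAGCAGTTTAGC
TCRBV17: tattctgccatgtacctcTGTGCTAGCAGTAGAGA
They encode CASSF, CASSL and CASSR, followed by 1 base for TCRBV14 and 2 for the others. All 10 untrimmed TCRBV14 and all 6 untrimmed TCRBV15 rearrangements had the end shown, as did 24 of 26 for TCRBV17. Over the 36 bases before the cysteine codon, TCRBV14 and TCRBV15 were identical at 20 positions (55.6%), and each was identical to TCRBV17 at 19 (52.8%). Relatedness did not follow order along the chromosome alone, as TCRBV15 matched its neighbor TCRBV16 at 27 positions (75%) and TCRBV17 matched TCRBV16 at 15 (41.7%).

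The largest clones of each segment show what these ends become after joining. Each line below is the complete window of 87 bases that was read, with the CDR3 in capitals up to the codon before the last phenylalanine. The first 4 are productive and the last 2, both TCRBV17, are out of frame.
TCRBV14 1R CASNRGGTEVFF: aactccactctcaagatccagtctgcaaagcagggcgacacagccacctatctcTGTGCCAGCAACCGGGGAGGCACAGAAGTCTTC
TCRBV14 7NR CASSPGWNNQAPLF: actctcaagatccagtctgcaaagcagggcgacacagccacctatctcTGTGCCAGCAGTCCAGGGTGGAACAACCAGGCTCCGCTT
TCRBV15 3R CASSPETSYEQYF: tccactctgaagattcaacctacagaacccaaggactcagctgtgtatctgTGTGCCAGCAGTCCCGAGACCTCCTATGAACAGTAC
TCRBV17 1R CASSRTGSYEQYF: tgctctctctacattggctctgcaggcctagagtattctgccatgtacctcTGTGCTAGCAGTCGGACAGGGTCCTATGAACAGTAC
TCRBV17 7NR out of frame: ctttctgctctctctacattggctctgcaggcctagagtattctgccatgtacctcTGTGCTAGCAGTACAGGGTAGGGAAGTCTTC
TCRBV17 6NR out of frame: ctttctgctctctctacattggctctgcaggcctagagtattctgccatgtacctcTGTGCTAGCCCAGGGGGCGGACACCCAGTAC
Their template counts were 1306, 542, 259, 41, 42 and 38, in the order shown. TCRBV17 thus had a largest productive clone no bigger than its largest non-productive one, whereas the largest productive clones of TCRBV14 and TCRBV15 were far larger than any non-productive rearrangement of the same segments, which reached 5 and 11 templates.

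As shares of distinct productive rearrangements, the 3 segments varied less between mice than as shares of productive templates, given below. TCRBV14 made up 3.69%, 1.96% and 3.39% of the productive rearrangements of 1R, 2R and 3R and 3.27%, 2.41%, 3.30% and 2.91% of those of 4NR to 7NR. TCRBV15 made up 3.34%, 2.74% and 3.21% in R and 2.95%, 2.52%, 2.70% and 2.49% in NR. TCRBV17 made up 2.13%, 2.09% and 2.29% in R and 3.06%, 1.99%, 1.20% and 2.34% in NR. The highest mouse exceeded the lowest by 1.88-fold, 1.34-fold and 2.55-fold, and R and NR overlapped for all 3 segments. TCRBV15 came closest to a separation, with 2 R mice above all 4 NR mice and 2R below 4NR (R 3.10% ± 0.313, SD, n = 3; NR 2.67% ± 0.215, SD, n = 4).

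The non-productive rearrangements gave another order. TCRBV15 was the most frequent of the 3 in 6 of 7 mice, at 3.45%, 4.14% and 4.70% of non-productive rearrangements in R and at 5.06%, 4.47%, 0.562% and 3.08% in NR. The low value, of 6NR, was a single rearrangement. TCRBV14 ranged from 1.45% to 2.83% and TCRBV17 from 1.61% to 3.37%. TCRBV15 was thus the most frequent of the 3 among non-productive rearrangements in all mice but 6NR, while its share of productive rearrangements was close to that of TCRBV14.

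The difference in usage between R and NR lay within the spread of the mice. In edgeR's quasi-likelihood test on counts of distinct productive rearrangements, 0 of the 24 V segments tested passed (0%), and 1 had an unadjusted p below 0.05. The log2 fold change of R over NR was 0.07 (SE 0.21, adjusted p = 0.870) for TCRBV14, 0.22 (SE 0.17, adjusted p = 0.819) for TCRBV15 and -0.11 (SE 0.22, adjusted p = 0.870) for TCRBV17. For non-productive rearrangements 0 of 24 passed (0%), also before adjustment, and the values were 0.12 (SE 0.35), 0.16 (SE 0.30) and -0.04 (SE 0.35), each with an edgeR adjusted p of 0.989. Without sequences found in several mice the values for TCRBV14, TCRBV15 and TCRBV17 were 0.17, 0.27 and -0.21 in productive and 0.03, 0.04 and -0.09 in non-productive rearrangements, none of them called. Without 1R the TCRBV14 value for productive rearrangements was -0.10, and without 4NR the TCRBV17 value was 0.04. For non-productive rearrangements the signs also turned, to -0.06 for TCRBV14 without 4NR, to -0.02 for TCRBV15 without 6NR and to 0.02 for TCRBV17 without 2R.

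**Figure D1:**
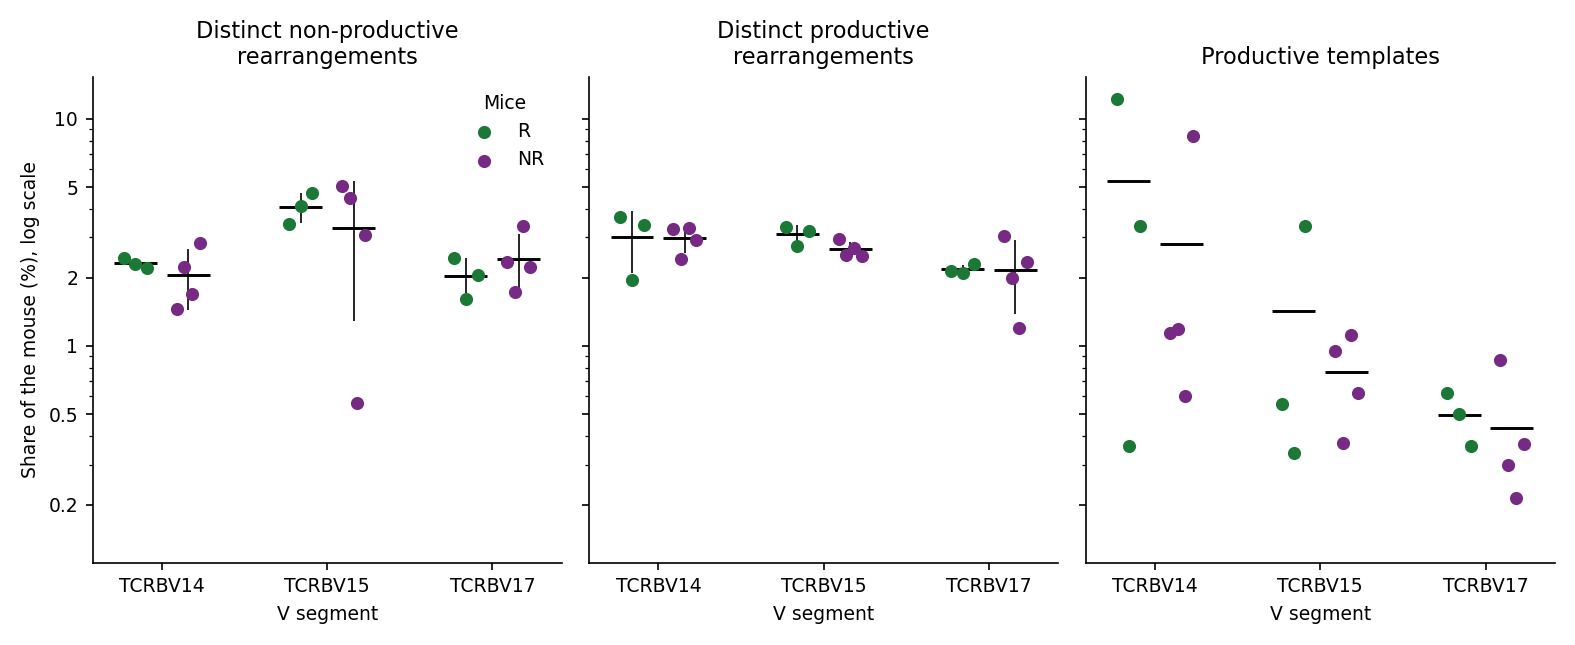
Share of each mouse's distinct non-productive rearrangements, distinct productive rearrangements and productive templates that TCRBV14, TCRBV15 and TCRBV17 made up, on a log scale, with 1 point per mouse (green R, purple NR), horizontal lines at the group means and, in the first 2 panels, vertical lines for the SD (not drawn for templates, where it exceeds some means). The points lie between 1.20% and 5.06% for rearrangements, except TCRBV15 in 6NR at 0.562% of the non-productive ones, and for templates TCRBV14 spreads from 0.362% to 12.2%.

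Counted in templates, the picture changed for TCRBV14 and, in 1 mouse, for TCRBV15. TCRBV14 held 12.2% of the productive templates of 1R (95% Wilson interval 11.7 to 12.8), 0.362% of 2R (0.255 to 0.514) and 3.38% of 3R, and 1.15%, 1.18%, 0.600% and 8.35% of 4NR to 7NR. It ranked 3rd among V segments in 1R and 2nd in 7NR but 16th in 2R and 18th in 6NR, so that 1 mouse of each group stood far above the others. The highest mouse exceeded the lowest 33.7-fold. TCRBV15 held 0.558%, 0.339% and 3.38% in R and 0.948%, 0.375%, 1.11% and 0.619% in NR, with 3R alone above 1.11%. TCRBV17 held 0.623%, 0.503% and 0.364% in R and 0.869%, 0.298%, 0.214% and 0.369% in NR, never reaching 1%.

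R and NR overlapped in templates for every one of the 3 segments. Means ± SD for 3 R and 4 NR mice were 5.32% ± 6.15 and 2.82% ± 3.69 for TCRBV14, 1.43% ± 1.70 and 0.764% ± 0.331 for TCRBV15, and 0.497% ± 0.129 and 0.438% ± 0.295 for TCRBV17. With edgeR, 0 of 24 V segments passed (0%), while 4 had an unadjusted p below 0.05, none of them among these 3. The log2 fold changes were 0.62 (SE 1.20, adjusted p = 0.948), 0.80 (SE 0.79, adjusted p = 0.828) and 0.25 (SE 0.43, adjusted p = 0.948). The two-sided exact permutation test over the 35 divisions of the mice, whose smallest possible p is 0.0286, gave p = 0.543, 0.686 and 0.800 (adjusted p = 0.960 each, 0 of 24 or 0% called). With 24 segments, none could pass that test alone. Single mice and clones set the direction. The TCRBV14 value was -0.55 without 1R and 2.25 without 7NR. Without the largest clone of each V segment in each mouse it was -0.21. The TCRBV15 value was -0.76 without 3R and -0.15 without sequences found in several mice. The TCRBV17 value was -0.10 without 2R and -0.08 without the shared sequences.

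Among the 3 segments, most large clones used TCRBV14. Of the 79 clones above 1% of a mouse's productive templates (1.15% of the productive rearrangements of all V segments), 6 used TCRBV14 (2.86% of its productive rearrangements), 1 used TCRBV15 (0.503%) and 0 of 156 used TCRBV17. These shares were not tested. The TCRBV14 clones were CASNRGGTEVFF (9.46% of 1R, 95% Wilson interval 8.98 to 9.96) and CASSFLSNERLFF (1.53%) in 1R, a TCRBJ02-01 clone in 3R (1.84%), and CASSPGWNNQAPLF (3.57%), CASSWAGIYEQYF (2.94%) and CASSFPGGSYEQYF (1.19%) in 7NR. They lay in 2 R mice and 1 NR mouse, with 3 clones in each group. The TCRBV15 clone was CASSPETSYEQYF in 3R (2.62%, 2.33 to 2.96). The largest TCRBV17 clone, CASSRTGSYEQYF in 1R, reached 0.297% (0.219 to 0.403).

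In the mice with the most TCRBV14 and TCRBV15 templates, 1 clone held much of the total. The largest clone held 77.5% of the TCRBV14 templates of 1R, 54.5% of those of 3R, 66.2% of those of 5NR and 42.8% of those of 7NR. In 3R, 1 clone likewise held 77.5% of the TCRBV15 templates. For TCRBV17 the largest clone of 1R, the mouse with the most TCRBV17 templates (86), held 47.7% of them. The mouse with the highest TCRBV17 share, 4NR, had a largest clone of 3 templates, 6.82% of its TCRBV17 templates. The typical rearrangement was small for all 3, with a median of 1 template. Rearrangements with a single template made up 55.2% of the productive ones for TCRBV14, 61.3% for TCRBV15 and 61.5% for TCRBV17, against 58.0% over all V segments. Those with 10 or more templates numbered 12 (5.71%), 5 (2.51%) and 1 (0.641%), against 5.34% over all V segments.

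Mean clone size was compared with all other V segments of the same mouse by a two-sided exact sign-flip permutation test over the 7 mice, whose smallest possible p is 0.0156, adjusted over the 20 V segments with enough rearrangements. At that smallest p, a segment could pass the adjustment only together with other segments. Mean clone size was set as an alternative to the single-template share. TCRBV17 was lower in 7 of 7 mice, by a mean log2 difference of -2.34 ± 0.42 (SD), with exact p = 0.0156 and adjusted p = 0.0312. TCRBV15 was lower in 6 of 7 mice, by -1.91 ± 1.08 (exact p = 0.0312, adjusted p = 0.0481), and the exception was 3R. TCRBV14 was lower in 5 of 7, by -0.59 ± 1.80 (exact adjusted p = 0.434), the exceptions being 1R and 7NR. Of the 20 V segments 12 were called lower (60%) and 1 higher (5%), so that a lower mean clone size was shared by most segments. The single-template share itself differed from that of the other V segments by -1.91, 3.47 and 3.91 percentage points for TCRBV14, TCRBV15 and TCRBV17. None of 20 V segments passed in that measure (0%), 7 having an unadjusted p below 0.05 by the exact test, TCRBV15 among them (p = 0.0469, adjusted p = 0.134, higher in 6 of 7 mice). Without sequences found in several mice the 3 differences were -0.0685, 1.83 and 0.489 points.

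**Figure D2:**
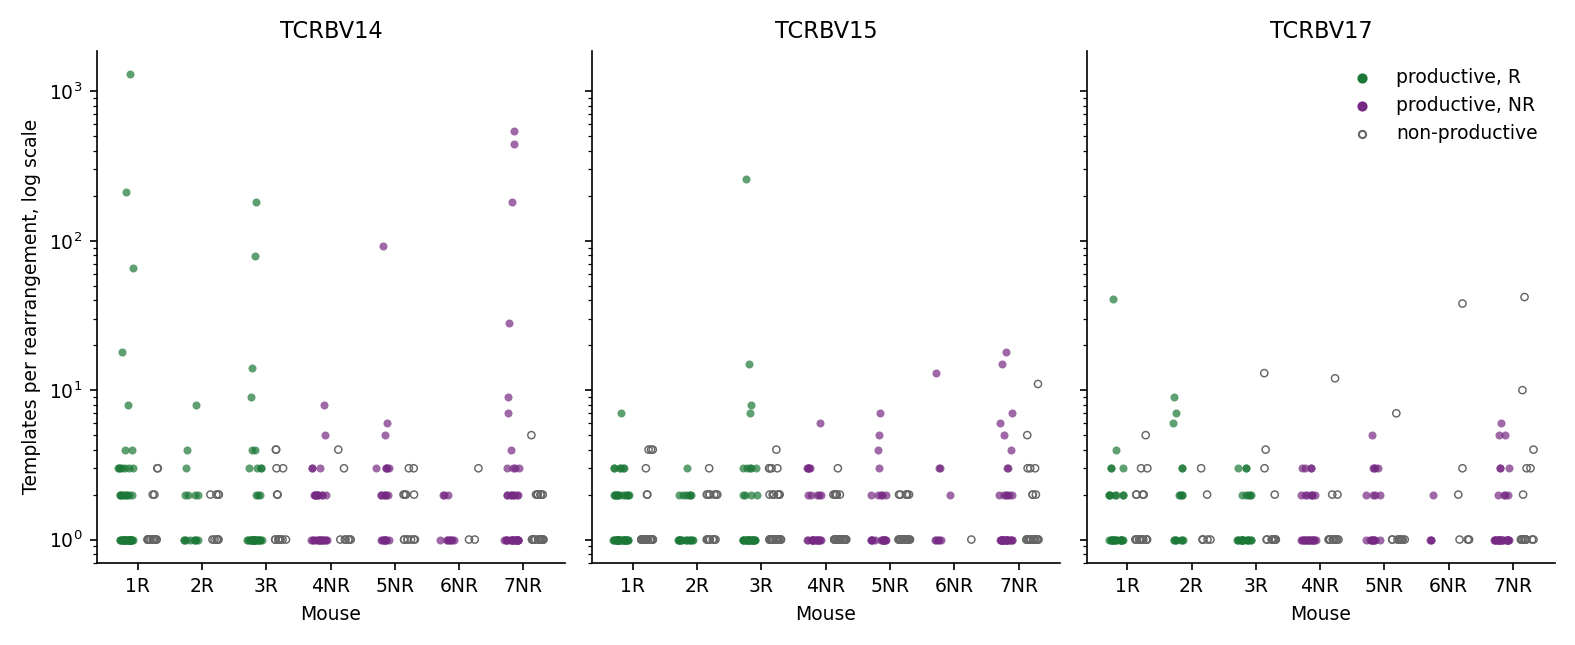
Templates of every TCRBV14, TCRBV15 and TCRBV17 rearrangement by mouse, on a log scale, productive ones filled (green R, purple NR) and non-productive ones as open circles, spread sideways for visibility. TCRBV14 clones reach 1306 templates in 1R and 542 in 7NR, one TCRBV15 clone reaches 259 in 3R, and the 2 largest non-productive TCRBV17 rearrangements reach 42 and 38.

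Productive and non-productive rearrangements were also set side by side. The mean was 16.8 templates per productive and 1.54 per non-productive rearrangement for TCRBV14, and 3.28 and 1.50 for TCRBV15. For TCRBV17 it was 1.96 and 2.72, the non-productive value being the larger one. Without the 2 largest non-productive rearrangements that value was 1.85, below 1.96 but above the 1.70 left without the largest productive clone. Over all V segments the means were 9.65 and 4.26. Without the largest rearrangement of each kind the productive means were 10.6, 1.98 and 1.70 and the non-productive ones 1.50, 1.44 and 2.27. These pooled means were not tested. Of the non-productive rearrangements 0 for TCRBV14, 1 for TCRBV15 and 5 for TCRBV17 had 10 or more templates. The TCRBV17 rearrangement with 38 templates in 6NR, which made up 7.18% of that mouse's non-productive templates (95% Wilson interval 5.28 to 9.71), was also found in 7NR with 10, and the one with 42 in 7NR (1.21%) was found in that mouse alone.

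The share of distinct rearrangements that were productive, called the in-frame share here, was 70.1% ± 7.61 (SD over 7 mice) for TCRBV14, 59.4% ± 14.5 for TCRBV15 and 62.0% ± 10.1 for TCRBV17. TCRBV14 exceeded the other V segments of the same mouse (63.1%) by 6.94 percentage points ± 7.52 and was higher in 6 of 7 mice, 2R being the exception. TCRBV15 was lower in 6 of 7 mice, by a mean of -4.09 ± 13.8 points, with 6NR at 90% of 10 rearrangements as the exception. TCRBV17 differed by -1.31 ± 11.2 points, with 6NR at 40% of 10 rearrangements and the other mice between 61.2% and 69.6%. Without sequences found in several mice the TCRBV17 difference was 0.679 points. Without 6NR it was 2.74 points, and that of TCRBV15 was -9.0 points (exact p = 0.0312, adjusted p = 0.0599). None of the 20 V segments passed the exact sign-flip test in this share (0%), and 9 had an unadjusted p below 0.05. The exact p was 0.0781 for TCRBV14 (adjusted p = 0.142), and the adjusted p was 0.605 for TCRBV15 and 0.984 for TCRBV17.

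All 3 segments were joined most often to TCRBJ02-07. It took 45 of 210 productive TCRBV14 rearrangements (21.4%), 54 of 199 for TCRBV15 (27.1%) and 32 of 156 for TCRBV17 (20.5%). For TCRBV14 the next were TCRBJ01-01 and TCRBJ02-05 with 29 each (13.8%) and TCRBJ02-01 with 28. For TCRBV15 they were TCRBJ02-05 with 28, TCRBJ02-01 with 26 and TCRBJ01-01 with 20. For TCRBV17 they were TCRBJ02-05 with 24, TCRBJ02-01 with 19, and TCRBJ02-02 and TCRBJ02-03 with 17 each. TCRBV17 held 10.9% TCRBJ02-02 against 5.99% for V segments other than the 3, and 2.56% TCRBJ01-04 against 6.27%. TCRBJ01-06 was found in 0 of 156 productive TCRBV17 rearrangements, which allows a share of up to 1.92%, against 2.83% for the V segments other than the 3. Among non-productive rearrangements it was found in 2 of 87 for TCRBV17 (2.30%), against 2.66%. These single-J shares are descriptions and were not tested.

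J2 segments took 66.2% of productive TCRBV14 rearrangements pooled over the mice, 73.4% of those of TCRBV15 and 78.2% of those of TCRBV17, against 69.2% for V segments other than the 3. The same order was found in non-productive rearrangements, with 59.3%, 70.7% and 77.0% against 69.1%. Of the non-productive TCRBV14 rearrangements, 14 of 91 (15.4%) lay 1 base from a rearrangement of the same mouse with at least 10 times the templates. This held for 5 of 157 for TCRBV15 (3.18%) and 0 of 87 for TCRBV17. All 6 non-productive TCRBV14 joins to TCRBJ01-05 came from 1 mouse. Whether the non-productive order holds without such sequences was not tested. By mouse the J2 share of productive TCRBV17 rearrangements was 73.3%, 87.5% and 88.0% in R and 69.0%, 68.4%, 100% and 81.8% in NR, where the 100% rests on 4 rearrangements. TCRBV14 ranged from 48.1% (1R) to 80.5% (7NR) and TCRBV15 from 61.9% (2R) to 85.7% (4NR). D1 was assigned to 44.3%, 39.7% and 37.2% of the productive rearrangements of TCRBV14, TCRBV15 and TCRBV17, and D2 to 33.3%, 35.7% and 41.7%, so that the order of the D clusters followed that of the J clusters. No D was assigned in 22.4%, 24.6% and 21.2%, and D2 was assigned to 8, 4 and 3 productive rearrangements with a J1 segment.

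Within mice, TCRBV17 exceeded the other V segments by 11.7 percentage points ± 12.1 (SD) in J2 share. It was positive in 5 of 7 mice. With at least 5 rearrangements required per mouse, which leaves out 6NR, it was 8.56 points, and weighted by templates it was 0.130 points (exact p = 1). It did not pass the exact sign-flip test (p = 0.0625, adjusted p = 0.312). The differences were -2.92 ± 12.9 points for TCRBV14 (exact adjusted p = 0.625) and 4.35 ± 8.08 points for TCRBV15 (exact adjusted p = 0.391). Without sequences that carry another rearrangement's 3′ end, described below, the TCRBV15 difference was 2.69 points. None of 20 V segments passed (0%), and 2 had an unadjusted p below 0.05. Weighted by templates, the J2 difference of TCRBV14 was -33.5 points (exact p = 0.0469, adjusted p = 0.179). Single clones weighed on the template shares, with TCRBJ01-01 at 1531 of 3528 TCRBV14 templates (43.4%) and TCRBJ02-07 at 399 of 652 TCRBV15 templates (61.2%).

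**Figure D3:**
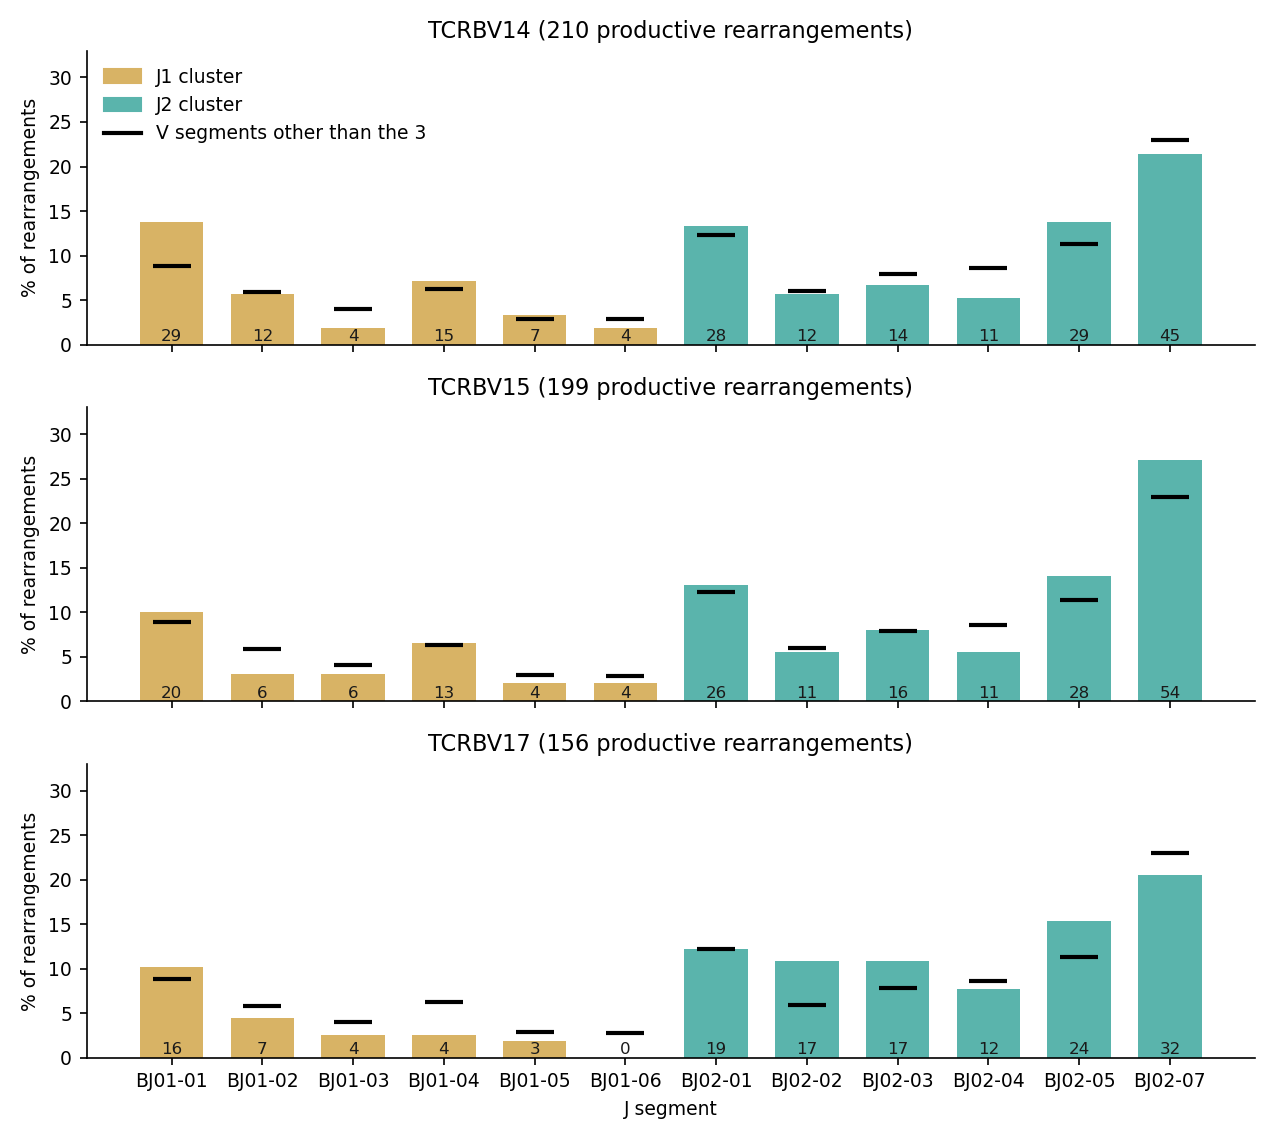
Share of the productive rearrangements of TCRBV14, TCRBV15 and TCRBV17 joined to each J segment, pooled over 7 mice, with bars for the J1 cluster (tan) and the J2 cluster (teal), the number of rearrangements at the base of each bar, and black lines for the V segments other than the 3. TCRBJ02-07 is the tallest bar in each panel, TCRBV17 has no TCRBJ01-06, and its single TCRBJ02-06 rearrangement is not drawn.

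TCRBV15 had shorter CDR3s than the other V segments of the same mice, and was 1 of 4 V segments called shorter. Its mean length was 13.5 residues ± 0.303 (SD over 7 mice), against 14.0 for all other V segments of the same mice. By mouse it was 13.8, 13.2 and 13.6 in R and 13.8, 13.8, 13.1 and 13.5 in NR, below the other V segments in 7 of 7 mice. The difference was -0.452 residues ± 0.306 (SD), with p = 0.0156 in the two-sided exact sign-flip test, the smallest possible with 7 mice, and adjusted p = 0.0391. It was the 2nd shortest of the 20 V segments by this difference. In all, 8 of 20 V segments passed (40%), 4 of them as shorter (20%).

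The call for TCRBV15 was near its limit. Without sequences found in several mice the difference was -0.465 residues (exact adjusted p = 0.0521), and weighted by templates it was -0.918 (exact adjusted p = 0.0625). With any 1 mouse left out it was between -0.505 and -0.374, and the adjusted p was between 0.0597 and 0.0781, with 0.0312 as the smallest p that 6 mice allow. TCRBV14 was shorter than the other V segments in 6 of 7 mice, by -0.316 residues ± 0.321 (exact adjusted p = 0.120), 2R being longer by 0.319. TCRBV17 differed by -0.0477 ± 0.406 (exact adjusted p = 0.812), longer in all 3 R mice and 7NR and shorter in 4NR, 5NR and 6NR.

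The length distributions showed where the difference lay. The most frequent length was 14 residues for TCRBV14 (66 of 210) and TCRBV17 (51 of 156), as for the V segments other than the 3 (32.2%). For TCRBV15 it was 13 residues (63 of 199, 31.7%). TCRBV17 had more of its rearrangements at 15 residues (43 of 156, 27.6%) than TCRBV14 (38 of 210, 18.1%) or TCRBV15 (38 of 199, 19.1%).

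**Figure D4:**
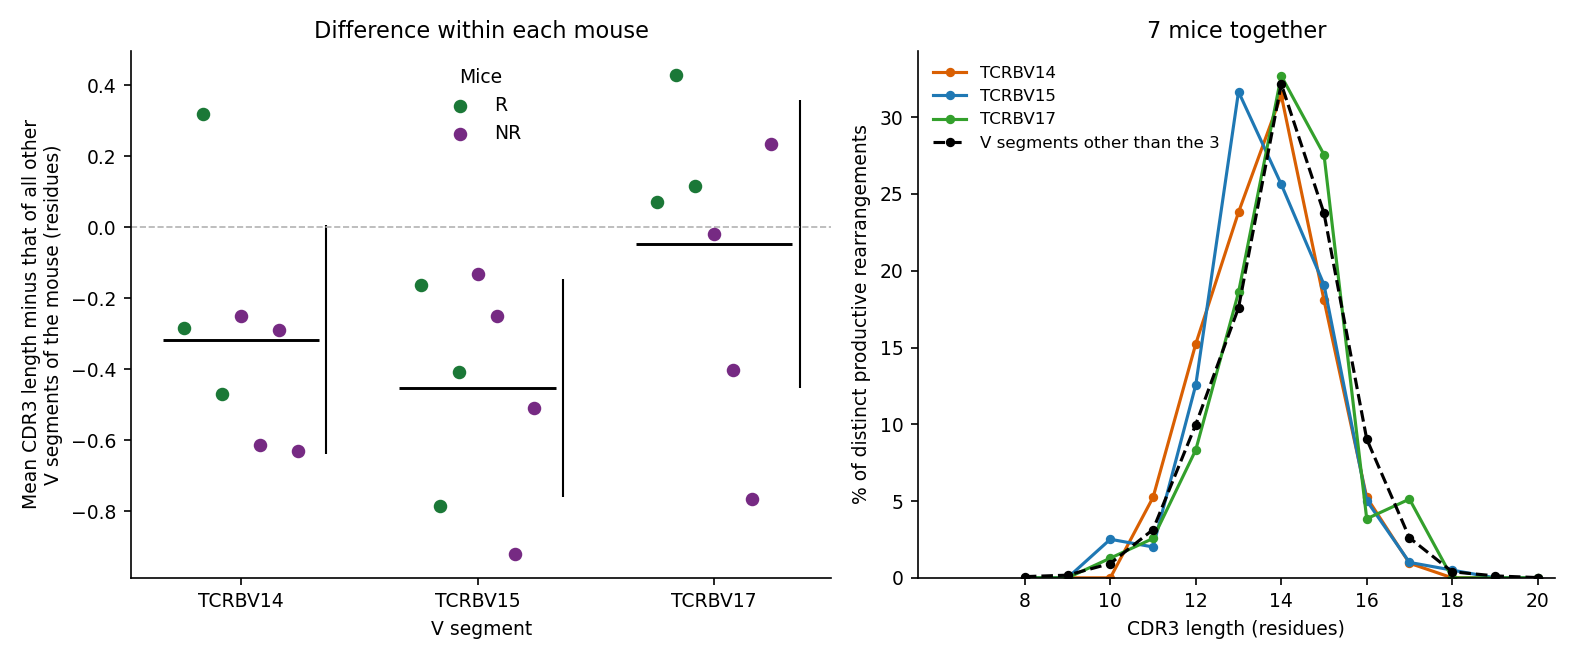
Left, mean CDR3 length of each segment minus that of all other V segments of the same mouse, in residues, with 1 point per mouse (green R, purple NR), horizontal lines at the means and vertical lines for the SD over 7 mice. Right, share of distinct productive rearrangements by CDR3 length, pooled over the mice, where TCRBV15 peaks at 13 residues and the others at 14.

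The CDR3 was divided into the bases left from V, the bases of D and N, and the bases left from J. V left 12.6 bases on average in TCRBV14, 13.2 in TCRBV15 and 14.0 in TCRBV17, against 13.7 in V segments other than the 3. D and N bases numbered 10.1, 9.76 and 10.4, against 10.2, and J bases 18.2, 17.9 and 17.7, against 18.2. The shorter CDR3s of TCRBV14 thus had fewer V bases, and those of TCRBV15 had fewer bases of each kind. TCRBV15 and TCRBV17 have V ends of the same length, 17 bases, and trimming took 3.82 bases from TCRBV15 and 2.97 from TCRBV17. It took 3.37 from the 16 bases of TCRBV14, and 2.54 on average from V segments other than the 3. An untrimmed V end was found in 4.76% of TCRBV14, 3.02% of TCRBV15 and 16.7% of TCRBV17 rearrangements, against 26.0% for V segments other than the 3. Among 23 V segments whose end could be read, only 1 had a lower untrimmed share than TCRBV15 and only 2 a lower one than TCRBV14. These are pooled means and shares over the 7 mice, without a test.

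**Figure D5:**
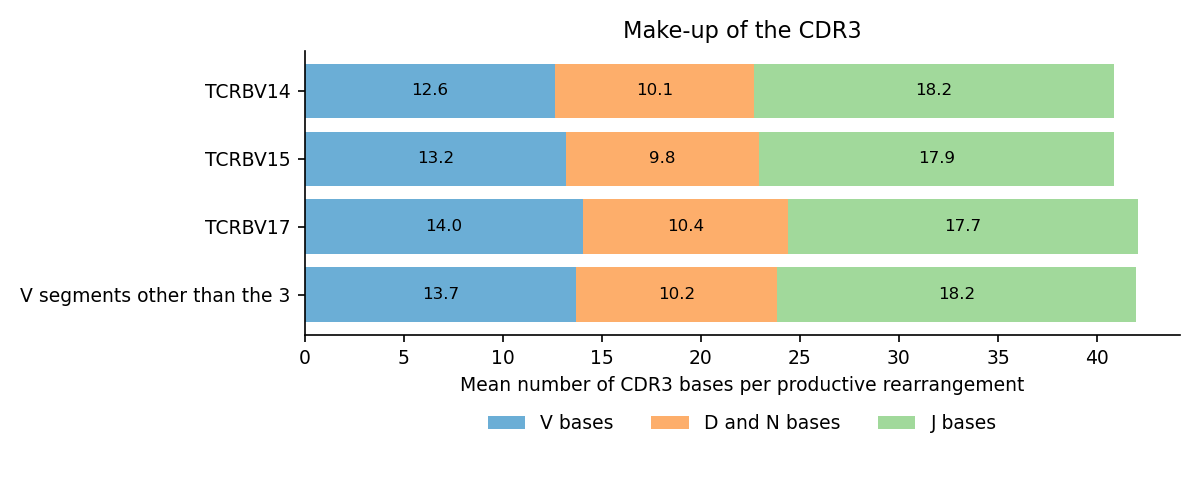
Mean number of V, D and N, and J bases in the CDR3 of productive rearrangements of TCRBV14, TCRBV15, TCRBV17 and the V segments other than the 3, pooled over 7 mice and stacked along the axis in bases. V bases rise from 12.6 in TCRBV14 to 14.0 in TCRBV17, while J bases fall from 18.2 to 17.7.

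N insertions were compared within mice as well. TCRBV14 had 3.78 N bases per rearrangement ± 0.309 (SD over 7 mice), against 3.40 for the other V segments, a difference of 0.386 ± 0.331 that was positive in 6 of 7 mice (exact p = 0.0469, adjusted p = 0.188). The differences were -0.0779 ± 0.305 for TCRBV15 and 0.119 ± 0.614 for TCRBV17 (exact adjusted p = 0.677 for both). None of 20 V segments passed (0%), and 5 had an unadjusted p below 0.05. Weighted by templates, the TCRBV14 difference was 1.79 ± 0.575 (exact p = 0.0156, adjusted p = 0.0625), and without sequences found in several mice it was 0.259 (exact p = 0.219) and that of TCRBV17 -0.0578. For TCRBV17 the R mice differed from the other V segments by 0.460, 0.561 and 0.792 bases and the NR mice by 0.440, 0.00379, -0.715 and -0.707, where the value of 6NR (-0.715) rests on 4 rearrangements. The lowest R value and the highest NR value were 0.460 and 0.440. Of the 100 differences compared, 6 (6%) did not overlap between R and NR. The exact permutation p over 35 divisions was 0.0571 and the adjusted p 0.962, and 0 of the 100 passed (0%). With so few divisions, none of the 100 could pass this test alone.

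The residue after CASS carried the mark of each V end. At position 5 of the CDR3, TCRBV17 had arginine in 88 of 156 rearrangements (56.4%), TCRBV15 had leucine in 87 of 199 (43.7%), and TCRBV14 had phenylalanine in 61 of 210 (29.0%). In V segments other than the 3 these residues made up 6.04%, 24.9% and 2.10% of that position. They are the residues encoded by the ends printed above. Of the productive TCRBV15 rearrangements, 10 carried the 3′ end of another V segment's rearrangement, as described below, and most of these had leucine at position 5. TCRBV14 was the most varied of the 3 there, with leucine in 44 rearrangements and proline in 35. Serine was second for TCRBV15 (23) and for TCRBV17 (21). Proline at this position was found in 2 of the 6 TCRBV14 clones above 1%, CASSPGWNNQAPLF and the TCRBJ02-01 clone of 3R, and in the TCRBV15 clone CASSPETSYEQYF.

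Compared directly with each other, the 3 segments gave no difference that passed the test. Over all pairs of V segments and 5 measures, 950 comparisons were made and 0 passed (0%). The smallest exact sign-flip p that 7 mice allow is 0.0156, so a pair could pass only together with many others. The smallest exact p among the members' pairs, 0.0469 (adjusted p = 0.132), was reached by 2 comparisons. One was the J2 share, which was lower in TCRBV14 than in TCRBV17 by -14.3 percentage points ± 16.4 (SD), in 6 of 7 mice. The other was N insertions, higher in TCRBV14 than in TCRBV15 by 0.451 bases ± 0.501, in 6 of 7 mice. TCRBV15 had shorter CDR3s than TCRBV17 by -0.392 residues ± 0.450, in 6 of 7 mice (exact p = 0.0625, adjusted p = 0.157).

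Across the 7 mice, the shares of distinct productive rearrangements of TCRBV14 and TCRBV15 were each other's closest by rank. Among the V segments tested, their Spearman's rho was 0.679. TCRBV17 was closest to TCRBV13-01 (0.821) and TCRBV12-02 (0.750), and its rho with TCRBV14 and TCRBV15 was 0.143 and 0.214. These values describe 7 libraries whose shares sum to 100% within each mouse, and were not tested.

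In all, 23 sequences of the 3 segments were found in 2 or more mice, 17 productive and 6 non-productive. Of these, 19 (82.6%) lay in both R and NR mice and 17 (73.9%) included 3R, against 316 (75.6%) and 222 (53.1%) of the 418 shared sequences of all V segments. The 3 that included 1R were all shared with 4NR, and 87 of the 418 included 1R. Among productive sequences, 8 of 197 for TCRBV14 (4.06%), 6 of 192 for TCRBV15 (3.12%) and 3 of 152 for TCRBV17 (1.97%) were shared, against 274 of 6517 over all V segments (4.20%). Among non-productive ones TCRBV17 had the highest share of the 3, with 2 of 88 for TCRBV14, 0 of 157 for TCRBV15, which allows a share of up to 1.91%, and 4 of 83 for TCRBV17 (4.82%), against 3.74% over all V segments.

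Some shared CDR3s differed widely in size between mice. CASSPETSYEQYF of TCRBV15 had 260 templates in 3R (2.63% of productive templates), 13 in 6NR (0.557%, the smallest library) and 6 in 7NR (0.0395%). The CDR3 of the TCRBV14 clone with TCRBJ02-01 had 185 in 3R, 1 in 6NR and 9 in 7NR, and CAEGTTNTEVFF had 79, 2 and 1 in the same mice. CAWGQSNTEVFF of TCRBV14 was found in 4 mice, with 92 templates in 5NR, 9 in 3R, 2 in 6NR and 1 in 7NR. The last 2 of these had lost the serines of the CASS start through trimming of 10 and 11 V bases. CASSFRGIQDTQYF of TCRBV14 and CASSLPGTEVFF of TCRBV15 were small in each of the 3 mice that held them, with 1 to 6 templates. For TCRBV17 only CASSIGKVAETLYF was found in 3 mice, with 9 templates in 2R and 1 each in 3R and 5NR.

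Some TCRBV15 rearrangements carried the 3′ end of a far larger rearrangement of another V segment. In 12 of them (10 productive, 5.03% of the productive ones), at least the last 40 bases equaled those of a rearrangement of the same mouse with another V label and 10 or more times the templates. That other label was TCRBV16 in 10 and TCRBV03 in 2. TCRBV14 and TCRBV17 had 0 such sequences, of 111 among the 10930 rearrangements of the series. Some other V segments held them as well. TCRBV12-02 had the highest share, with 26 of 442 rearrangements (5.88%), and TCRBV15 ranked 3rd with 12 of 356 (3.37%). The pair below, from 7NR, is shown because it holds the same CDR3 under both labels. Capitals mark the 51 bases that are identical.
TCRBV15 7NR TCRBJ02-07: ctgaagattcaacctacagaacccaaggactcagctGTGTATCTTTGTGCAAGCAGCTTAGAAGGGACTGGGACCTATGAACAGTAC
TCRBV16 7NR TCRBJ02-07: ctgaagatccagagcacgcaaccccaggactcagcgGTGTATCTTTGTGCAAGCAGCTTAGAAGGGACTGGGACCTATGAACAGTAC
The upper sequence had 2 templates and the lower 5703, and 9 of the 36 bases before the shared part differed. A CDR3 that starts CASSLEGTGG, also joined to TCRBJ02-07, was found under TCRBV15 in 4 mice, always as such sequences with 1 or 2 templates per mouse, while it had 336 to 4474 templates per mouse under other V labels. How these sequences arose was not tested. Without them the CDR3s of TCRBV15 were shorter than those of the other V segments by -0.513 residues (exact adjusted p = 0.0391). They were kept in the TCRBV15 residue, J segment and trimming shares above.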

How the data were processed

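Rearranged TCRβ genes were sequenced from genomic DNA of CD8 T cells by the authors' service provider (immunoSEQ, survey resolution), and 1 table per animal was deposited. Its template counts, as deposited, are whole-number estimates for each rearrangement and were not normalized, and the deposited productive frequency is the fraction of productive templates. Multiplex PCR amplifies segments unequally, so differences in level between V segments may include it, and Wilson intervals (95%) and limits from a count of 0 (3 counts) cover counting error only. No genome build is given in the sources used here. The 14 rearrangements without a resolved V label (0.0167% of templates) stayed in totals and out of V tests.

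R and NR were compared with edgeR 4.0.16 (R 4.3.3, quasi-likelihood test, TMM, common dispersion) on V segments with at least 10 counts. DESeq2 1.42.0 was an alternative. V segments were compared with all others of the same mouse by exact sign-flip tests, for segments with at least 3 rearrangements in at least 6 mice. Adjustment followed Benjamini and Hochberg over all segments, at 0.05. Scripts in Python 3.11.15 (numpy 2.4.6, pandas 2.3.3, scipy 1.17.1) were tested on simulated data. The named clones are those above 1%, the 3 largest per segment, the largest per mouse and CDR3s in 3 or more mice. The members and lists were chosen with earlier results of these data known. As each mouse is a separate animal, p-values cover the spread between mice.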

Additional observations from a re-analysis of the deposited data

Results flagged for a closer look

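In the 4 NR mice, the TCRBV14 share of productive templates was 8.35% in 7NR and between 0.600% and 1.18% in the others, a gap of 0.925 of the whole range, and the largest TCRBV14 clone of 7NR held 42.8% of those templates. The in-frame share of distinct TCRBV17 rearrangements was 40% in 6NR, of 10 rearrangements, and between 64.7% and 69.0% in the other NR mice, a gap of 0.851 of the range. These 2 were found among 24 sets of 4 NR mice examined for a mouse far from the others, and chance gives about 1 in 20.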

How the results depend on the processing

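The number of V segments called between R and NR in templates was 3 with DESeq2 and 1 without TMM, none of them TCRBV14, TCRBV15 or TCRBV17, and DESeq2 gave no p for TCRBV15. In the comparison with the other V segments of the same mouse, the number called for in-frame share was 7 without sequences found in several mice. For CDR3 length it was 0 without those sequences, 0 weighted by templates, and 0 to 0 with 1 mouse left out, where the smallest exact p of 0.0312 leaves less room for adjustment. With log2 mean templates in place of the single-template share it was 13. The TCRBV15 CDR3 difference moved to -0.465 without shared sequences and to -0.918 weighted by templates, past the threshold in neither.

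Signs turned as follows, no reversed value passing a test. In templates, R over NR, TCRBV14 was -0.21 without the largest clone of each V segment in each mouse. Without shared sequences TCRBV15 was -0.15 and TCRBV17 -0.0767, and with DESeq2 TCRBV17 was -0.00493. By average productive percentage TCRBV15 was -0.00622 and TCRBV17 -0.00536 percentage points. With 1 mouse left out, the ranges for TCRBV14, TCRBV15 and TCRBV17 were -0.55 to 2.25, -0.76 to 1.31 and -0.10 to 0.50 in templates, -0.10 to 0.26, 0.16 to 0.29 and -0.17 to 0.0397 in productive rearrangements, and -0.0603 to 0.37, -0.0157 to 0.34 and -0.21 to 0.0248 in non-productive ones. Against other V segments, TCRBV17 in-frame share was 0.679 points without shared sequences and -2.55 to 2.74 with 1 mouse left out. TCRBV15 J2 share was -3.91 points weighted by templates. TCRBV17 CDR3 length was 0.0655 without near copies, 0.0719 with at least 5 rearrangements per mouse, and -0.127 to 0.0719 with 1 mouse left out, and TCRBV15 was -0.505 to -0.374. N insertions of TCRBV15 were 1.07 weighted by templates and 0.0543 in non-productive rearrangements, and those of TCRBV17 -0.0578 without shared sequences and -0.884 in non-productive ones. The log2 mean templates of TCRBV14 were lower by -0.59 although its single-template share was lower too, which ranged from -5.08 to 1.04 with 1 mouse left out. TCRBV15 and TCRBV17, at -1.91 and -2.34, passed in that measure. The cause of these changes was not tested. Of 324 values recomputed for the 3 segments, 285 kept their direction and side of the threshold.

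R and NR mice share replicate numbers but are different animals. Deviations of same-numbered mice correlated at 0.301, -0.157 and 0.170 in templates, 0.330, -0.195 and 0.451 in productive and 0.503, 0.0472 and 0.415 in non-productive rearrangements. Numbers 1 and 3 matched best with their own in all 3 counts, a hint from the data, and number 2 in none, so pairing was not used. With the number as a replicate block the template values were 1.56, 0.19 and 0.30, none called, and TCRBV14 in productive rearrangements was -0.0240. Leaving out near copies (1 base apart, with at least 10 times fewer templates) and sequences with another rearrangement's 3′ end were chosen after seeing the data. Depth limits 6NR most, where TCRBV17 had 4 productive rearrangements.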
